A study of Mus musculus with 12 samples.

Results

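The 30 genes described here encode enzymes and regulators of cholesterol and fatty acid synthesis, taken by gene symbol from the 17875 genes of the expression tables. They comprised 7 genes of the mevalonate steps, 11 of the squalene and sterol steps, 5 regulators and sterol carriers, and 7 of fatty acid synthesis, and all 30 passed the filter on low counts that kept 13453 genes. Messenger RNA was sequenced from subcutaneous colorectal tumours of mice in 12 libraries, 3 per group. The stress group carried tumours and was under chronic stress. The low-dose and high-dose groups carried tumours, were stressed in the same way and were given Xiao-chai-hu decoction, an herbal mixture used in Chinese medicine, at a lower or a higher dose. The control group carried tumours alone, so no group was free of tumour and no decoction group was free of stress. The labels used here give no dose in numbers, no tumour cell line, no mouse strain, sex or age, and no length of the stress.

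Cells make cholesterol from acetyl-CoA through mevalonate, farnesyl diphosphate, squalene and lanosterol. The transcription factors of the SREBP family, encoded by Srebf1 and Srebf2, switch on the genes of this route and of fatty acid synthesis when membranes hold little sterol. The escort protein encoded by Scap carries SREBP to the Golgi apparatus for cleavage, and the proteins encoded by Insig1 and Insig2 hold that complex back in the endoplasmic reticulum when sterols are plentiful. Proliferating tumour cells are known for a high demand for both kinds of lipid.

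Promoter windows ending at a start given in the table, 30 in all, were found in the RefSeq promoters of GRCm38.p6 for 24 of the 30 genes. The windows printed here belong to genes whose values are given per library further on: a mevalonate enzyme, 2 sterol enzymes, the main regulator and its retention factor. Each is the 250 bases before the start, read 5′ to 3′ on the strand of the gene. Bases just after the start were looked for in known transcripts of the same gene. They were found for Ebp, Srebf2 and Insig1 but not for Hmgcs1 and Sc5d, whose starts are therefore less certain. The positions are Hmgcs1 (chr13:119690101-119690350, plus strand), Sc5d (chr9:42264301-42264550, minus strand), Ebp (chrX:8193513-8193762, minus strand), Srebf2 (chr15:82147019-82147268, plus strand) and Insig1 (chr5:28071162-28071411, plus strand). Capitals mark the letters of 3 motifs on either strand: TCACNCCA, a form of the sterol regulatory element, CACGTG, an E-box, and CCAAT, the box bound by NF-Y, which lies on the opposite strand in each window shown.
Hmgcs1: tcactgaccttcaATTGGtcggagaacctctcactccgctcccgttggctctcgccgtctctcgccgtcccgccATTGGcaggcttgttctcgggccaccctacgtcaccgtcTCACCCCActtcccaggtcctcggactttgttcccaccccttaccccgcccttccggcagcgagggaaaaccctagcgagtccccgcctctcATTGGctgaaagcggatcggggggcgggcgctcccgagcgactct
Sc5d: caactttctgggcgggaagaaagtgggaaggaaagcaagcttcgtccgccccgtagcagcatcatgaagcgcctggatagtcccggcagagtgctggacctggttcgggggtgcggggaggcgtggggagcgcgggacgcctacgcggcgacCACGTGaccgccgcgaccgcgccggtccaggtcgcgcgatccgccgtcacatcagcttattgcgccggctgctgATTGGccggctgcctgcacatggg
Ebp: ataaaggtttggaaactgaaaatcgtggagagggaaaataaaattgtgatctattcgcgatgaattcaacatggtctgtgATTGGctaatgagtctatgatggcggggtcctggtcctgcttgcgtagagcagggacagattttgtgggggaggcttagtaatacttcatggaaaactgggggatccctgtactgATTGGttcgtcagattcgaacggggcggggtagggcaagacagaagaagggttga
Srebf2: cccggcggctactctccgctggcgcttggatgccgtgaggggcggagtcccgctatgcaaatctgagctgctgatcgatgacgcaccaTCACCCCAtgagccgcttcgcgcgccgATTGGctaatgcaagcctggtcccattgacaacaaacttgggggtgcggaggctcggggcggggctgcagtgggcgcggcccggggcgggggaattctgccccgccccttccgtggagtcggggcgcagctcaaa
Insig1: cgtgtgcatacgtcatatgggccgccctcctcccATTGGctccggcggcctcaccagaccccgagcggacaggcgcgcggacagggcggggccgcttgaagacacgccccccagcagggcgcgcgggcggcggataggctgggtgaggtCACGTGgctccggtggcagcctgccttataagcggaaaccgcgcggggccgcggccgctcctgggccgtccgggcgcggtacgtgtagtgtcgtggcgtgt
TCACNCCA was present before 3 of the 24 genes (12.5%), Hmgcs1, Msmo1 and Srebf2, against 4.2% of 27025 genes. CACGTG was present before 5 (20.8%), against 6.86% of all genes, and CCAAT before 19 (79.2%), against 37.5%. The 3 letter strings do not overlap in the windows shown. A match is a description of the letters and not a measured binding site.

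Levels between genes are compared in TPM, which the authors scaled for transcript length. Fdps, which makes farnesyl diphosphate, had the highest median over the 12 libraries, at 271 TPM (range 180 to 449). Scd2, a desaturase that makes monounsaturated fatty acids, followed at 244 TPM (143 to 339), and Hmgcs1, the synthase of HMG-CoA, at 155 TPM (88.8 to 245). Msmo1, an oxidase that removes methyl groups from sterols, had 142 TPM and Acly, which supplies cytosolic acetyl-CoA from citrate, had 139 TPM. The ranges of these 5 genes overlapped. At the low end, Acss2, which makes acetyl-CoA from acetate, had a median of 6.52 TPM (4.52 to 8.51), Tm7sf2, a sterol reductase, 9.69 TPM, and Hsd17b7, a reductase of sterol demethylation, 10.2 TPM. Srebf2 had a median of 107 TPM and Srebf1 30.1 TPM, and their ranges of 55.8 to 142 TPM and 21.2 to 35.1 TPM did not overlap. Scd2 (lowest value 143 TPM) likewise lay above Scd1 (highest value 135 TPM) in every library. The counts of Acat2, Idi1, Fdft1, Scd1 and Scd2 were not whole in 11 or 12 libraries, so reads may have been divided between similar copies and the levels of these 5 genes are less certain.

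The main feature of the members was a shared order of libraries that cut across the groups. All values from here are counts scaled to library size after TMM (CPM), unless TPM is named. Hmgcs1 stood at 310, 216 and 431 CPM in stress libraries 1 to 3, at 225, 200 and 217 CPM in the low-dose libraries, at 250, 411 and 283 CPM in the high-dose libraries and at 265, 441 and 325 CPM in the controls. Sqle, the squalene epoxidase that catalyses a rate-limiting step, stood at 178, 123 and 258 CPM under stress, at 130, 127 and 158 CPM at the low dose, at 146, 267 and 162 CPM at the high dose and at 173, 259 and 205 CPM in controls. Both genes were high in stress library 3, high-dose library 2 and control library 2, and the 3 low-dose libraries had no such high value.

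These 3 libraries, picked out after their values were seen, were the 3 highest of the 12 for 23 of the 30 members (76.7%), against 93 (0.691%) of all genes tested. With each library's trend along gene length taken off, the count was 21 of 30, against 0.766% of all genes. On the deposited TPM it was 22 of 30, and the share of all genes was not counted on that scale. The 7 members without this order were Tm7sf2, Nsdhl, Ebp, Dhcr7, Srebf1, Scap and Scd1. Within the groups, high-dose library 2 was the highest of its group for 29 of 30 members (38.6% of all genes), control library 2 for 28 (34.8%), stress library 3 for 27 (35.5%) and low-dose library 3 for 25 (31.9%). Control library 1 was the lowest control for 29 members (31.7% of all genes) and stress library 2 the lowest stress library for 24 (37.3%).

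**Figure D1:**
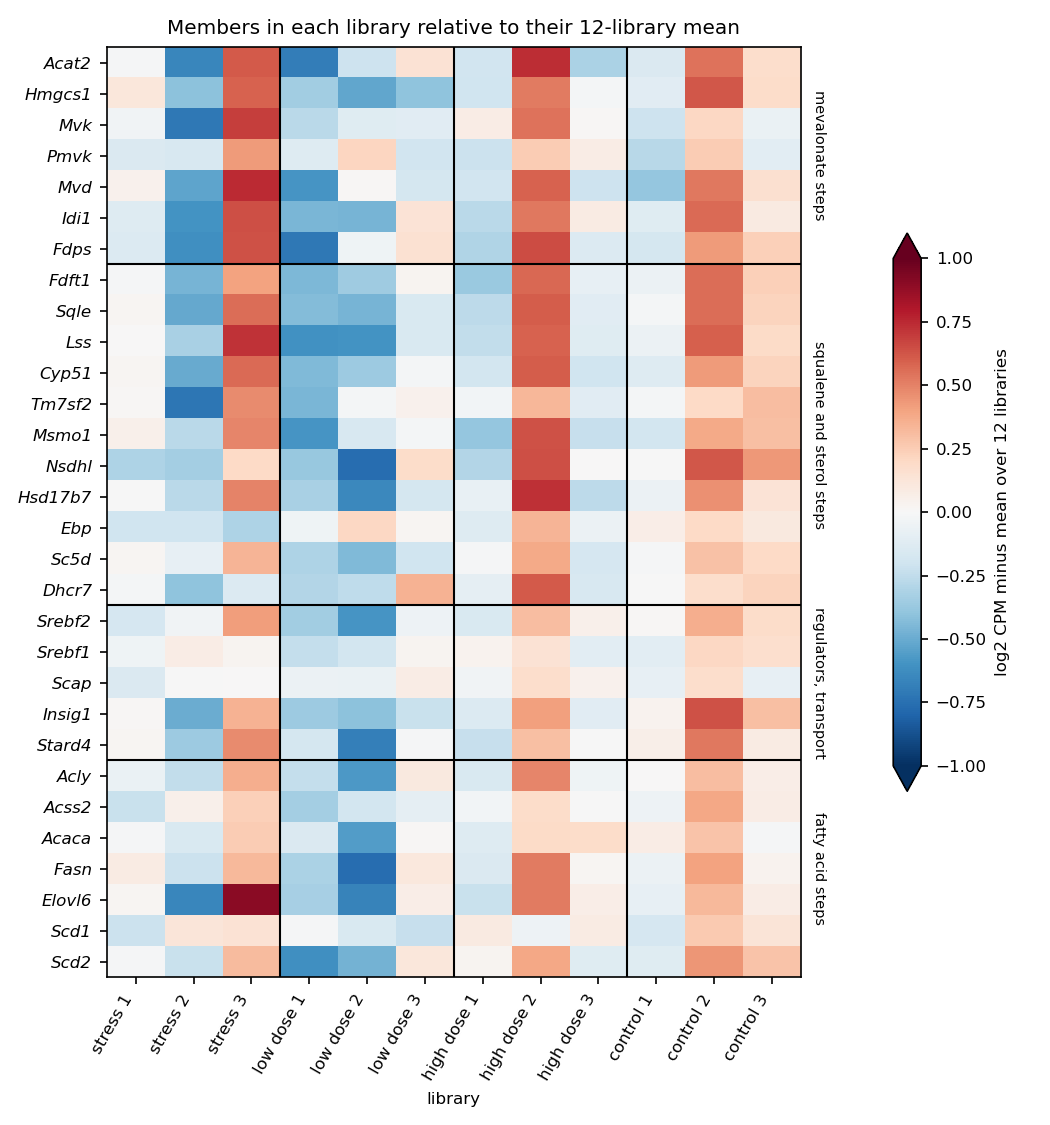
Heat map of the 30 members (rows, grouped by role) in the 12 libraries (columns, by group); colour is log2 CPM minus the mean of the gene over the 12 libraries, with colours saturating at 1 in either direction. Stress library 3, high-dose library 2 and control library 2 form red columns, and low-dose libraries 1 and 2 and stress library 2 are mostly blue.

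Within 3 of the groups the members spread more widely than the median gene. The highest over the lowest library was 1.70-fold for the median member within the stress group, 1.57-fold within the high-dose group and 1.41-fold within the controls, against 1.24-fold, 1.26-fold and 1.14-fold for the median of all genes. Within the low-dose group it was 1.41-fold, against 1.44-fold for all genes. The mevalonate steps varied most within the stress group, with a median of 2.38-fold over 7 genes. Mvk, the mevalonate kinase, stood at 23.8, 14.9 and 39.5 CPM in the 3 stress libraries, and Mvd, the decarboxylase after it, at 33.9, 22.8 and 55.3 CPM. Elovl6, which lengthens palmitate, spread wider still, at 72.8, 45.8 and 135 CPM. In each of these 3 genes library 2 was lowest and library 3 highest.

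The 4 roles moved together across libraries, although not by the same amount. The median deviation of the mevalonate genes from their 12-library mean was 0.64 on the log2 scale in stress library 3 and 0.54 in high-dose library 2, that of the sterol genes 0.47 and 0.60, that of the regulators 0.35 and 0.30, and that of the fatty acid genes 0.32 and 0.38. In control library 2 the 4 medians lay between 0.33 and 0.53. Stress library 2 was at -0.60 for the mevalonate genes and -0.03 for the regulators. Low-dose library 2 had the opposite order of roles, at -0.12 for the mevalonate and -0.56 for the fatty acid genes. That library also showed the strongest trend with gene length (Spearman's rho -0.65 across 11748 genes, which are not independent replicates), and the fitted trend was -0.43 for Fasn, at 9101 bases, and 0.31 for Fdps, at 977 bases. All genes tested had medians between -0.03 and 0.02 in every library.

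**Figure D2:**
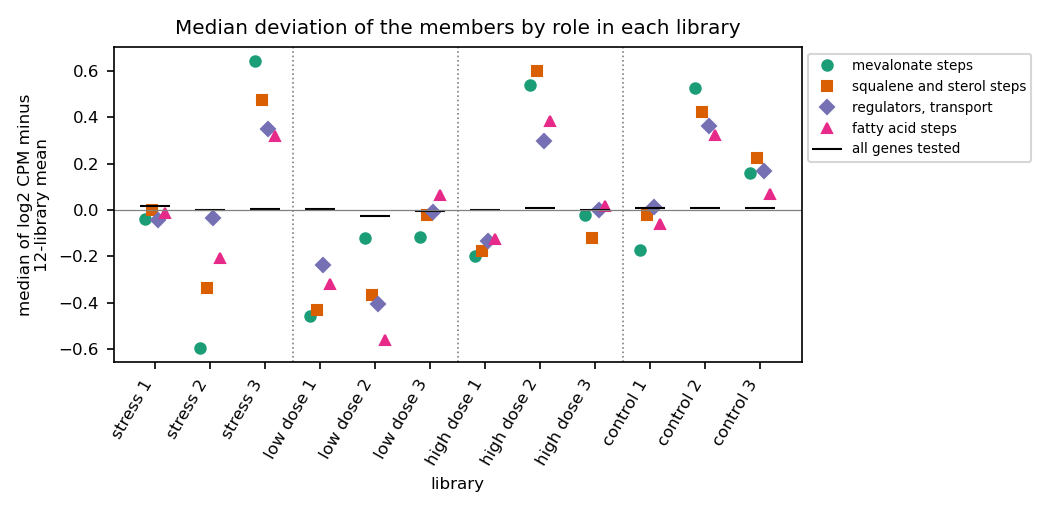
Median over the genes of each role of log2 CPM minus the 12-library mean (vertical axis) in each library (horizontal axis, by group); the black dashes are the median of all genes tested. The 4 roles lie between 0.30 and 0.64 in stress library 3, high-dose library 2 and control library 2, and all genes stay near 0.

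Markers of other cells were set beside this order. The 12 dividing-cell markers summed to 1870, 1930 and 1820 TPM in stress library 3, high-dose library 2 and control library 2. Low-dose library 3, the highest of its group for 25 of 30 members, had 1930 TPM, and control library 1 had 1800 TPM. In these 2 libraries the median deviation of the members from their 12-library mean was 0.003 and -0.062 on the log2 scale. In each group the highest dividing-cell sum was in the library that was highest for most members. Over groups these sums were 1370 to 1870 TPM under stress, 1260 to 1930 at the low dose, 1390 to 1930 at the high dose and 1750 to 1820 TPM in controls. The 10 macrophage markers summed to 2070, 2410 and 2510 TPM in the 3 libraries where the members were high, within 2070 to 3710 TPM under stress, 2870 to 5350 at the low dose, 2410 to 4660 at the high dose and 2350 to 2680 TPM in controls. Skeletal muscle markers reached 781 TPM in high-dose library 2, 420 in control library 1 and 296 in low-dose library 3, and were at 4.08 to 62.1 TPM in the other libraries. The part of these cell types in the members' values was not tested. Fat and sebaceous gland cells make much lipid, and some of their markers were near 0: Adipoq reached 0.53 TPM, Plin1 0.07 TPM and Scd3 0.03 TPM in any library. Others of the same lists were higher. Plin4 stood at 3.22 to 18.9 TPM, Lpl at 2.04 to 7.33 TPM and Far2 at 2.3 to 3.52 TPM, and Cfd reached 4.25 TPM and Awat2 1.11 TPM. The summed 12 adipocyte markers ranged from 74.4 to 133 TPM under stress, 61.6 to 104 at the low dose, 92.2 to 113 at the high dose and 71.6 to 131 TPM in controls. Most of each sum was Fabp4 (45.6 to 116 TPM), which other cells also express. The 7 sebaceous markers summed to 5.55 TPM at most, in stress library 3, and to 5.38 TPM in control library 1. In these bulk libraries, fewer cells of a type and less RNA per cell cannot be told apart. The label of colorectal tumour was set against 10 epithelial markers, which summed to 2.53 to 5.64 TPM under stress, 3.83 to 8.46 at the low dose, 3.74 to 5.72 at the high dose and 4.41 to 6.34 TPM in controls. Cdh1, the epithelial cadherin, made up most of this at 1.71 to 6.46 TPM and Krt19 reached 1.48 TPM, while Epcam reached 0.84 TPM, Krt8 0.13 TPM, Krt18 0.10 TPM and Krt20 0.12 TPM, so these defining epithelial genes were low or near 0. Krt14, a keratin of the keratinocyte list, stood at 218 to 481 TPM, with the lowest value in stress library 3. Krt5 of the same list was at 5.15 TPM in stress library 3 and at 0 TPM in every other library. The part of skin cells in the members' values of that library was not tested.

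Across the 4 groups together, 1 member had an unadjusted p under 0.05 in edgeR's quasi-likelihood test, against 6.53% of all genes. That gene was Sc5d, the desaturase near the end of the sterol route (Benjamini-Hochberg adjusted p = 0.752 in edgeR). No member passed an adjusted p under 0.05 in this test or in any of the 6 comparisons of groups, by edgeR, DESeq2 or limma-voom, or in edgeR with any 1 library left out. Whether the libraries of a group stem from different mice is not stated in the labels, so p-values reflect variation among libraries that may be partly technical. Total counts of 16734741 to 17950195 per library put the members at levels where the spread between libraries, and not counting error, set the precision: log2 fold changes had a median SE of 0.25 for the members and 0.16 for all genes.

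**Figure D3:**
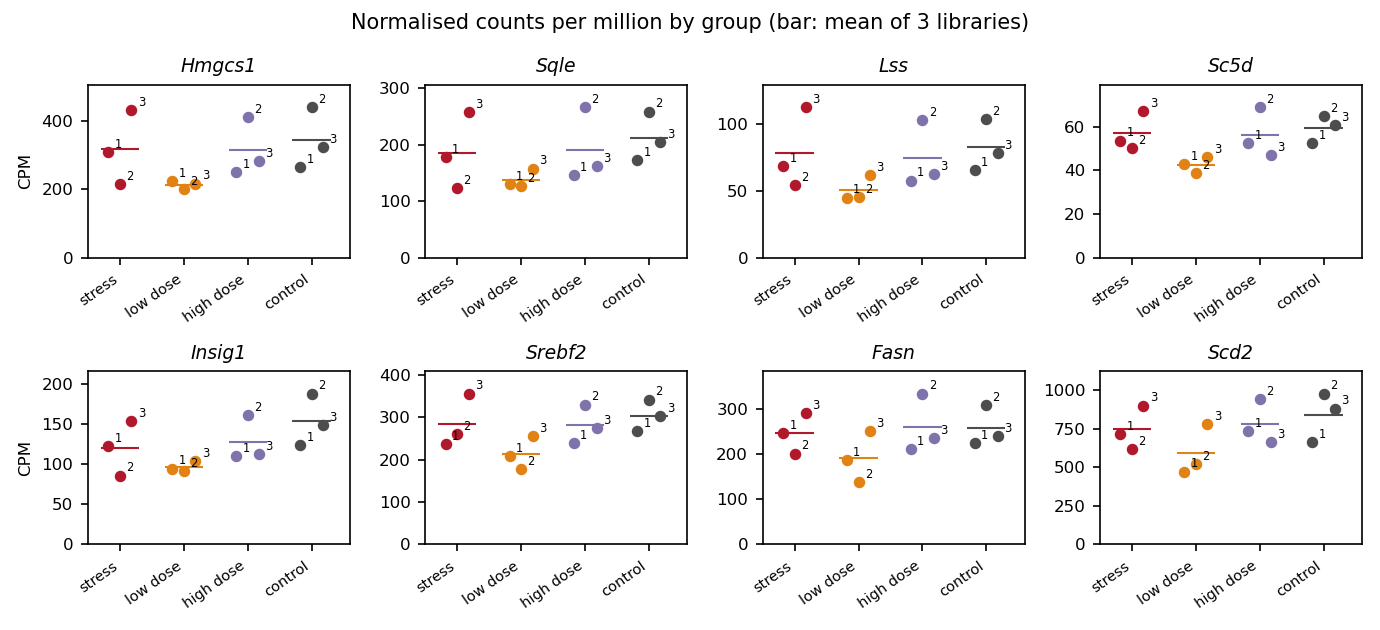
CPM of 8 members (panels, linear axes from 0) in the stress, low-dose, high-dose and control groups; each point is a library with its number, and the bar is the mean of 3. The low-dose points of Hmgcs1, Sc5d and Insig1 lie below all control points.

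The low dose was set against the stress group to see what the decoction did under stress at its lower dose. The members tended to be lower at the low dose, with 27 of 30 lower and a median log2 fold change of -0.30, against 0.00 and 50.1% lower over all genes. The medians were -0.29 for the mevalonate genes, -0.36 for the sterol genes, -0.32 for the regulators and -0.25 for the fatty acid genes. An unadjusted p under 0.05 was reached by 4 members (13.3%), against 13.4% of all genes, so the share was near the background. Of these, 3 were lower (6.55% of all genes) and 1 was higher (6.8%).

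Sc5d had 42.8, 39.0 and 46.2 CPM at the low dose, against 53.7, 50.2 and 67.2 CPM under stress. The low-dose libraries lay below every stress library, and the log2 fold change was -0.42 (SE 0.16, unadjusted p = 0.0187, edgeR adjusted p = 0.318). Srebf2, the SREBP of the cholesterol route, had 209, 177 and 256 CPM at the low dose, against 236, 260 and 356 CPM under stress. Low-dose library 3 overlapped the stress range, and the log2 fold change was -0.41 (SE 0.18, adjusted p = 0.365 by edgeR). For Hmgcs1 it was -0.58 (SE 0.26, adjusted p = 0.367 by edgeR), with low-dose libraries 1 and 3 above stress library 2. Fasn, the fatty acid synthase, had 187, 137 and 251 CPM at the low dose, against 246, 201 and 291 CPM under stress, a log2 fold change of -0.36 with an interval of 2 SE from -0.83 to 0.11. Acaca, which makes malonyl-CoA for it, had 59.0, 44.3 and 65.9 CPM at the low dose and 64.7, 58.9 and 78.0 CPM under stress, a log2 fold change of -0.25. Both overlapped between the groups. With the length trend of each library removed, Fasn stood at -0.10 and Acaca at 0.00, and the median of the fatty acid genes was -0.17. Of 21 alternative fits, the unadjusted p stayed under 0.05 in 18 for Sc5d, 12 for Srebf2 and 10 for Hmgcs1.

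Stress library 3 decided much of this difference. Without it the median was -0.06, with 19 of 30 lower, and 0 members had an unadjusted p under 0.05, against 10.2% of all genes. Without stress library 2 the median was -0.48 and 11 members did, against 12.2% of all genes. The median was -0.44 without low-dose library 3, with 7 members against 12%, and 0 members reached it without low-dose library 2, against 8.13%. There were 2 such members without low-dose library 1, where the share of all genes was 28.4%, and 2 without stress library 1 (9.3%), high-dose library 3 (12.2%) or control library 3 (11.2%). Markers of other cells were measured in the same comparison. All 7 tested lymphocyte markers were lower at the low dose, with a median of -0.47, and 0 of them had an unadjusted p under 0.05. The 9 listed lymphocyte markers summed to 146, 107 and 33.7 TPM in stress libraries 1 to 3 and to 78.9, 55.1 and 61.3 TPM in the low-dose libraries. Stress library 3 thus lay below every low-dose library. Of the skeletal muscle markers 10 of 12 were higher, with a median of 2.34. The muscle difference rested on low-dose library 3, where these markers summed to 296 TPM. The sums were 5.86 and 5.7 TPM in low-dose libraries 1 and 2, and 62.1, 4.08 and 4.75 TPM in stress libraries 1 to 3. Of the macrophage markers 6 of 10 were higher (median 0.06), and of the dividing-cell markers 7 of 12 (median 0.06). Mki67 was the 1 dividing-cell marker with an unadjusted p under 0.05, and was lower, at -0.52 (SE 0.19, adjusted p = 0.316 by edgeR). The part of these cell types in the low-dose difference of the members was not tested.

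**Figure D4:**
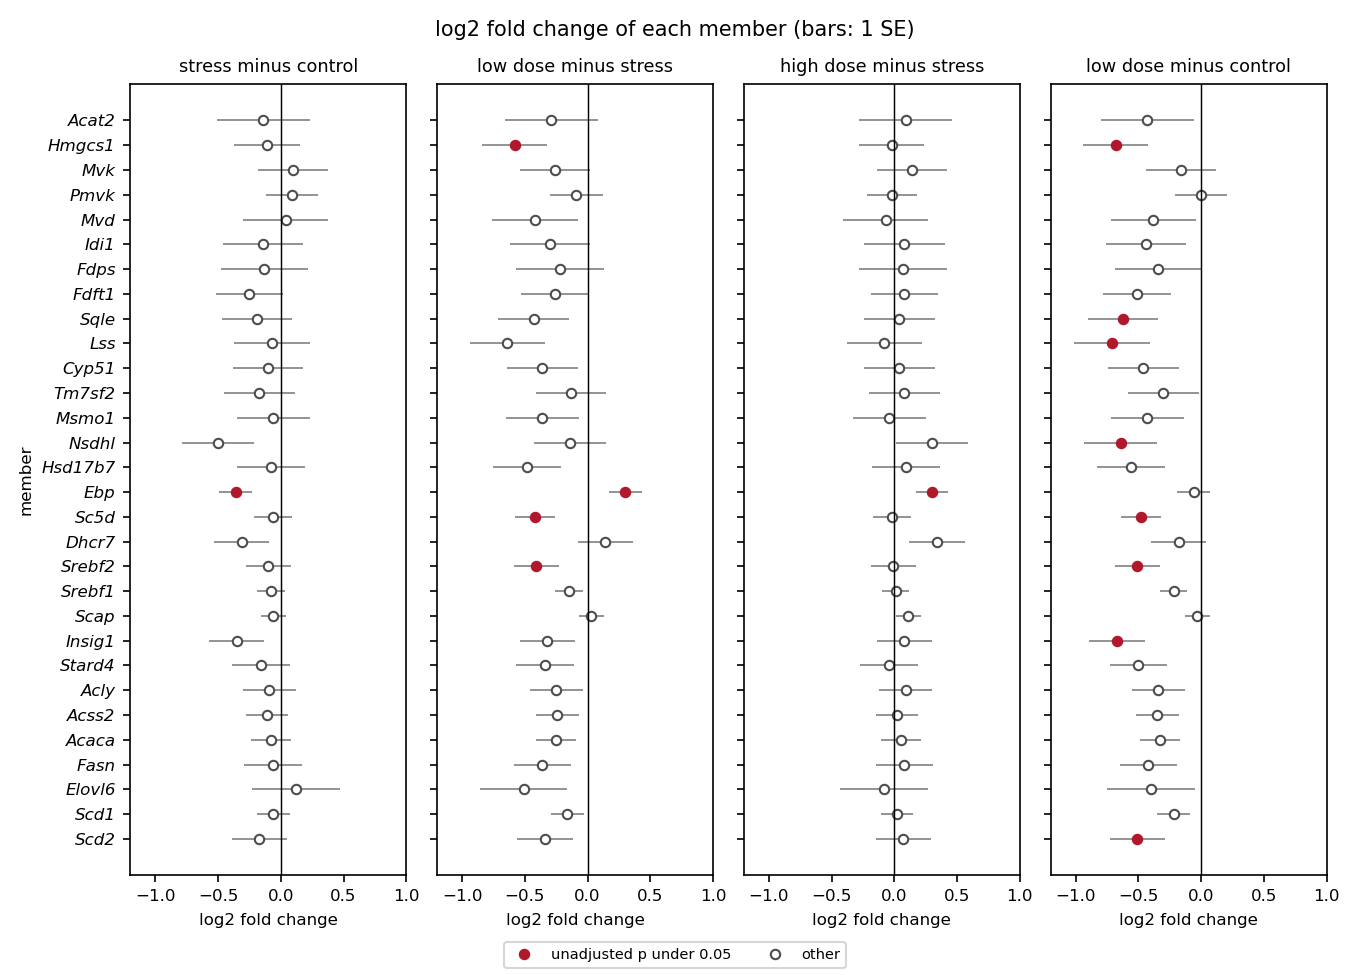
Log2 fold change of each member (rows) with 1 SE in 4 comparisons (panels), fitted by edgeR on 12 libraries; filled points have an unadjusted p under 0.05, and no point passes after adjustment. Most members lie left of 0 in both low-dose panels, and most bars cross 0 in the stress and high-dose panels.

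Ebp, the isomerase of late sterol intermediates, went the other way. It stood at 27.4, 27.5 and 25.5 CPM under stress, 30.6, 36.4 and 32.0 CPM at the low dose, 28.9, 40.0 and 30.3 CPM at the high dose and 33.0, 36.3 and 33.8 CPM in controls. The 3 stress libraries lay below all 9 others. The log2 fold change was -0.36 (SE 0.13) for stress against control, 0.30 (SE 0.13) for the low dose against stress and 0.30 (SE 0.13) for the high dose against stress. All 3 comparisons use the same stress libraries, and the edgeR adjusted p-values were 0.9999, 0.354 and 0.9998. The unadjusted p stayed under 0.05 in 20, 14 and 14 of the 21 alternative fits. Stress library 3, the highest stress library for 27 members, was the lowest for Ebp. Without control library 2 the stress difference was -0.32 (unadjusted p = 0.0568 by edgeR).

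For stress against control, Ebp was the only member with an unadjusted p under 0.05 (2.85% of all genes, 1.75% for lower values). The median log2 fold change of the members was -0.10, with 26 of 30 lower, against 0.01 and 48.3% lower over all genes. The sterol genes had a median of -0.17 and the fatty acid genes of -0.08. Nsdhl, a dehydrogenase of sterol demethylation, had 28.7, 28.1 and 40.7 CPM under stress, against 35.4, 54.6 and 48.1 CPM in controls, for a log2 fold change of -0.50 (SE 0.29). Dhcr7, the reductase that makes cholesterol from its last precursor, had 52.5, 40.2 and 48.2 CPM under stress, against 53.0, 60.0 and 62.0 CPM in controls, with no overlap and a log2 fold change of -0.31 (SE 0.22). Together with Ebp it made 2 members without overlap, lower under stress, against 7.02% of all genes. Single libraries turned the direction: the median was -0.33 with 30 of 30 lower and 3 members at an unadjusted p under 0.05 without stress library 3 (1.89% of all genes), 0.04 without stress library 2, and 0.02 without control library 2, where 0 members had such a p (1.74%). It was -0.21 without control library 1 and -0.05 without stress library 1.

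For the high dose against stress the members lay close together, with a median log2 fold change of 0.06 and 21 of 30 higher (48.9% of all genes). Ebp was the only member with an unadjusted p under 0.05 (1.42% of all genes, 0.825% for higher values). Scd1, the desaturase of liver and skin, had 304, 276 and 303 CPM at the high dose and 246, 311 and 316 CPM under stress, a log2 fold change of 0.02 with an interval from -0.25 to 0.28. Scd2 had 736, 940 and 661 CPM at the high dose and 716, 619 and 899 CPM under stress, a log2 fold change of 0.07 with an interval from -0.37 to 0.51. The groups overlapped for 29 of 30 members, all but Ebp (2.43% of all genes were higher without overlap). The median of the members was 0.29 without stress library 3, -0.14 without high-dose library 2, -0.11 without stress library 2, 0.01 without stress library 1, and 0.15 and 0.13 without high-dose libraries 1 and 3. Ebp kept its direction, and its unadjusted p was above 0.05 without high-dose library 2 or stress library 1 or 2.

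The high dose was also compared with the low dose, which is the step in dose the labels define. All 30 members were higher at the high dose, Ebp by 0.00, with a median log2 fold change of 0.36, against 0.00 and 50.8% higher over all genes. Sc5d was the 1 member with an unadjusted p under 0.05 (6.39% of all genes, 2.75% for higher values). It had 52.7, 69.1 and 47.2 CPM at the high dose, against 42.8, 39.0 and 46.2 CPM at the low dose, without overlap, and a log2 fold change of 0.40 (SE 0.16, edgeR adjusted p = 0.758). The groups did not overlap for 5 members, all higher (4.16% of all genes), among them Hmgcs1 at 0.55 (SE 0.26) and Insig1 at 0.41 (SE 0.22). The members move together across libraries, so their common direction is not 30 separate observations. Without high-dose library 2 the median was 0.15, with 24 of 30 higher, and 0 members had an unadjusted p under 0.05 (6.37% of all genes), as without low-dose library 2 (3.4%). There were 7 such members without high-dose library 1 (5.12% of all genes) or low-dose library 3 (8.2%), 5 without stress library 3 (6.36%) and 4 without stress library 2 (6.04%). There were 2 without control library 1 (5.0%) or 2 (5.09%), stress library 1 (5.47%) or high-dose library 3 (3.85%).

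The widest separation was between the low-dose and the control group, which differ in both stress and decoction. Of the 30 members 29 were lower at the low dose, with a median log2 fold change of -0.42, against 0.00 and 49.5% lower over all genes. An unadjusted p under 0.05 was reached by 8 members (26.7%), all lower, against 13.2% of all genes and 6.73% for lower values. The groups did not overlap for 9 members, all lower (30%, against 9.74% of all genes). After adjustment over all genes no member passed in edgeR, the smallest adjusted p being 0.322, and none in DESeq2 or limma-voom.

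Insig1, which is itself a target of SREBP, had 94.3, 91.2 and 104 CPM at the low dose, against 124, 188 and 149 CPM in controls. Each low-dose library lay below each control, and the log2 fold change was -0.67 (SE 0.22, unadjusted p = 0.00953). Sc5d differed by -0.48 (SE 0.16, unadjusted p = 0.00894). Srebf2 had 209, 177 and 256 CPM at the low dose and 268, 342 and 302 CPM in controls, without overlap, with a log2 fold change of -0.51 (SE 0.18). Hmgcs1 differed by -0.68 (SE 0.26) and Sqle by -0.62 (SE 0.28), both without overlap. Lss, which folds the squalene epoxide into lanosterol, had 45.1, 45.3 and 61.8 CPM at the low dose, against 66.0, 104 and 78.5 CPM in controls, for a log2 fold change of -0.71 (SE 0.30). Its control libraries were all higher, control library 1 by little. Nsdhl at -0.64 (SE 0.29) and Scd2 at -0.51 (SE 0.22) overlapped between the groups, through low-dose library 3. Scd2 had 471, 518 and 778 CPM at the low dose, against 661, 977 and 880 CPM in controls. The adjusted p-values of these 8 genes in edgeR lay between 0.322 and 0.378. Of 21 alternative fits, the unadjusted p stayed under 0.05 in 21 for Sc5d, 19 for Insig1 and for Srebf2, 18 for Hmgcs1, 15 for Lss, 14 for Scd2, 11 for Nsdhl and 10 for Sqle.

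Stard4, a sterol carrier that SREBP also induces, had 75.5, 53.0 and 84.6 CPM at the low dose, against 88.4, 123 and 89.9 CPM in controls, and differed by -0.50 (SE 0.23). Hsd17b7 had 20.1, 16.0 and 22.2 CPM at the low dose, against 24.1, 34.5 and 27.6 CPM in controls, and differed by -0.56 (SE 0.27). Acss2 had 7.30, 8.11 and 8.67 CPM at the low dose, against 8.90, 12.1 and 9.73 CPM in controls, and differed by -0.35 (SE 0.17). The groups did not overlap for these 3 genes, and none of the 3 had an unadjusted p under 0.05. Fdft1, the squalene synthase that commits farnesyl diphosphate to sterols, had 66.4, 70.9 and 92.5 CPM at the low dose and 87.0, 134 and 107 CPM in controls, with low-dose library 3 above control library 1 and a log2 fold change of -0.51 (SE 0.27). The differences of Scap and Srebf1 were smaller. Scap had 51.5, 51.3 and 56.7 CPM at the low dose and 50.8, 60.8 and 50.9 CPM in controls, for a log2 fold change of -0.03 with an interval from -0.23 to 0.18. Srebf1 had 58.0, 60.1 and 69.8 CPM at the low dose and 63.6, 79.0 and 76.9 CPM in controls, for a log2 fold change of -0.22 (SE 0.11). Pmvk, the second kinase of the mevalonate steps, differed by 0.00 (SE 0.21).

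The number of members with an unadjusted p under 0.05 in this comparison depended on single libraries. It was 14 without control library 1 (7.68% of all genes), 1 without control library 2 (7.3%), 4 without control library 3 (8.79%) and 2 without low-dose library 2 (6.6%). It was 4 without low-dose library 1, where the share of all genes was 25.9%. The median stayed between -0.57 and -0.27 over all such fits. With the 3 libraries richest in muscle transcripts left out, which are the lowest control and the highest low-dose library for most members as well as high-dose library 2, it was 19, against 10.7% of all genes, and the median was -0.70. With the length trend of each library removed, the medians were -0.50 for the mevalonate genes, -0.46 for the sterol genes, -0.36 for the regulators and -0.23 for the fatty acid genes, against -0.38, -0.48, -0.50 and -0.35 as first fitted. Fasn then stood at -0.16 and Acaca at -0.08, where they had been at -0.42 and -0.33, and Insig1 at -0.69. Other cell markers moved in the same comparison: 10 of 10 macrophage markers were higher at the low dose, with a median of 0.33, and 7 of 12 dividing-cell markers were lower, with a median of -0.08. The 8 keratinocyte markers summed to 261 to 363 TPM at the low dose and 425 to 489 TPM in controls. Nearly all of this was Krt14, at 251, 262 and 350 TPM at the low dose and 474, 413 and 452 TPM in controls. Krt5, another marker of that list, was at 0 TPM in all libraries of both groups, so the sums describe Krt14 and not the list. The part of the cell types named here in the members' values was not tested.

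For the high dose against control, no member had an unadjusted p under 0.05 in edgeR (1.04% of all genes), and the groups overlapped for every member (3.77% of all genes were higher and 4.93% lower without overlap). The median log2 fold change was -0.06, with 23 of 30 lower (49.5% of all genes). It was -0.26 without high-dose library 2, -0.19 without control library 1, 0.05 without control library 2 or high-dose library 1, and 0.00 without high-dose library 3. Insig1 had 110, 161 and 112 CPM at the high dose and 124, 188 and 149 CPM in controls, for a log2 fold change of -0.27 with an interval from -0.70 to 0.17.

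Genes around the pathway were read from lists chosen for their function. Among 9 genes of SREBP processing and sterol sensing other than the members, 0 passed in any comparison after adjustment by edgeR. At an unadjusted p under 0.05, 2 of the 9 were lower at the low dose than under stress (6.55% of all genes): Sec24d, a coat protein of the vesicles that carry SREBP to the Golgi apparatus, at -0.46 (SE 0.18) and Rnf139, a ubiquitin ligase, at -0.25 (SE 0.11). Sec24d was also the 1 gene of this list higher under stress than in controls at that threshold, at 0.48 (SE 0.18), against 1.1% of all genes. Insig2, the paralogue of Insig1 that SREBP does not induce, had 47.9, 77.3 and 42.5 CPM under stress, 56.4, 61.3 and 62.7 CPM at the low dose, 61.7, 60.1 and 58.2 CPM at the high dose and 58.2, 59.5 and 70.3 CPM in controls. Its highest library was stress library 2 and its lowest stress library 3, where Insig1 had 85.6 and 154 CPM.

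LXR, the receptor that senses oxidised sterols and drives sterol export, its partners and its targets formed a list of 9 genes, of which 0 passed after adjustment in edgeR. Abca1, which exports cholesterol, had 26.6, 53.7 and 26.5 CPM under stress, 39.8, 31.3 and 25.5 CPM at the low dose, 41.9, 21.6 and 30.5 CPM at the high dose and 29.3, 24.1 and 20.4 CPM in controls. Its highest value was again in stress library 2, where most members were low. Smpdl3a, a phosphodiesterase induced by LXR ligands in human macrophages, had 17.0, 15.1 and 13.1 CPM at the low dose, against 6.94, 10.3 and 4.53 CPM under stress and 7.61, 6.57 and 8.23 CPM in controls. The low-dose libraries lay above all 6 others, with log2 fold changes of 1.05 (SE 0.28, adjusted p = 0.296 by edgeR) against stress and 1.01 (SE 0.28, adjusted p = 0.321) against control. Of all genes, 5.37% lay above every stress library at the low dose and 7.65% above every control. Smpdl3a was the 1 of 9 genes higher at an unadjusted p under 0.05 in each comparison, against 6.8% and 6.45% of all genes. Abcg1, Mylip and Lpcat3, other LXR targets, overlapped between the low dose and both the stress and the control group. Lyz2, a macrophage marker, was higher by 0.70 (SE 0.30) against stress and 1.05 (SE 0.30) against control in the same libraries, and the part of macrophages in the Smpdl3a values was not tested.

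**Figure D5:**
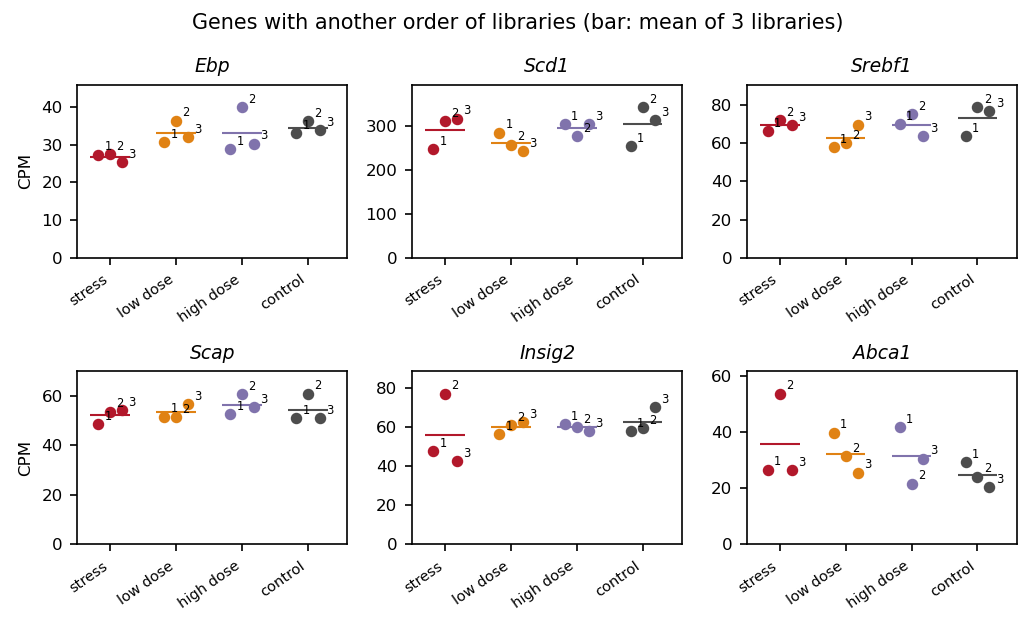
CPM of Ebp, Scd1, Srebf1 and Scap among the members, and of Insig2 and Abca1 outside them (panels, linear axes from 0), by group; points are libraries with their number and bars the mean of 3. Ebp is lowest in the 3 stress libraries, and Insig2 and Abca1 peak in stress library 2.

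Of the 13 genes of sterol uptake and transport, 1 had an unadjusted p under 0.05 in any comparison: Gramd1b, which carries sterol from the plasma membrane, higher under stress than in controls at 0.33 (SE 0.13), in a direction taken by 1.1% of all genes at that threshold. Of 22 other genes of fatty acid synthesis and glycerolipids that were tested, 1 was lower and 1 higher at the low dose than in controls at that threshold (6.73% and 6.45% of all genes), and 0 passed after adjustment by edgeR. The lower one was Lpin1, a phosphatase of triglyceride synthesis, with 18.1, 11.7 and 14.1 CPM at the low dose and 19.1, 31.0 and 17.4 CPM in controls, for a log2 fold change of -0.62 (SE 0.21). Low-dose library 1 lay within the control range. For the high against the low dose 2 of the 22 were higher at that threshold (2.75% of all genes), Lpin1 at 0.61 (SE 0.21) and Elovl5 at 0.29 (SE 0.11). For the low dose against stress 1 was higher (6.8% of all genes), Mcat at 0.28 (SE 0.12). The remaining comparisons held 0 such genes of this list. Of the 79 related genes tested, the 3 libraries that led the members were the 3 highest for 2, against 0.691% of all genes. These were Fads1 and Fads2, the desaturases of polyunsaturated fatty acids. Fads1 had 233, 207 and 209 CPM in stress library 3, high-dose library 2 and control library 2, and 138 to 189 CPM in the other libraries. The 15 tested genes of fatty acid oxidation held 0 with this order, which is near that background share.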

How the data were processed

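Poly(A) RNA of 12 tumour libraries was sequenced as stranded paired-end reads, per the labels' protocols. Per the submitters' processing notes the tools were cutadapt 1.9, HISAT2 2.0.4, StringTie 1.3.4d, DESeq2 and edgeR on GRCm38.p6; annotation, counting options and filters are not given in the sources used here. The deposited estimated counts per gene were made by the authors and not scaled. The FPKM values deposited by the authors gave transcript lengths here, and the TPM values deposited by the authors gave levels between genes. Of 17875 genes, 17820 were matched to RefSeq by identifier.

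Counts were rounded, filtered with filterByExpr (minimum count 10, 13453 genes) and scaled by TMM. The quasi-likelihood test of edgeR 4.0.16 (R 4.3.3) was fitted to the 4 groups, with 8 residual degrees of freedom, and p-values were adjusted by Benjamini-Hochberg over all genes. Intervals are 2 SE either side. Alternatives used DESeq2 1.42.0, limma 3.58.1 (voom with quality weights), RLE factors, other filters, offsets for length, fewer libraries and a replicate block. The pipeline was tested on simulated data. Members and lists were chosen with earlier results of these data known, and the comparisons of each dose with control, and the omission of libraries rich in muscle transcripts, were added after levels were seen. Any member could be named; values per library were allowed for the 10 members with the smallest p in the test of 4 groups and for 9 set genes, with a few others chosen after their values were seen, and for up to 3 genes per related list and comparison. Replicate numbers were not used as pairs: of 18 pairs of libraries with the same number, deviations correlated above 0.1 in 4 (r from -0.39 to 0.45). Tests are 2-sided.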

Additional observations from a re-analysis of the deposited data

How the results depend on the processing

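No member passed an adjusted p under 0.05 in any of the 21 alternative fits; the smallest adjusted p over these was 0.119 for the low dose against control, 0.125 for the low dose against stress, 0.211 for the high against the low dose and 0.26 for stress against control. The counts of members with an unadjusted p under 0.05 moved more, and the cause was not tested. For stress against control the count was 1, and 3 with only the 6 libraries compared. For the low dose against stress it was 4, and 2 with RLE factors, 1 with the length trend removed and 0 by limma-voom. For the high dose against stress it was 1, and 0 with the 6 libraries alone or by limma-voom. For the high against the low dose it was 1, and 2 without a filter or with a minimum count of 50, 4 with the 6 libraries alone or by DESeq2, and 0 by limma-voom. For the low dose against control it was 8, and 2 by limma-voom. For the test of 4 groups it was 1, and 2 with the length trend removed or by DESeq2. With the replicate number as a replicate block, the count was 2 for the high against the low dose and 2 for the 4 groups, and no other count moved by over 1.5 times. Over these alternatives the share of all genes was 2.59% to 10% for stress against control, 6.08% to 14.4% for the low dose and 1.26% to 2.62% for the high dose against stress, 2.34% to 6.94% for the high against the low dose, 7.37% to 14.2% for the low dose against control and 4.2% to 13.1% for the 4 groups. A further fit left out the 3 libraries richest in muscle transcripts (control 1, low dose 3 and high dose 2). Its counts were 4 for stress against control, and 11 for the low dose and 0 for the high dose against stress. Against control it gave 19 for the low dose, where the share of all genes was 10.7%. For the high dose against control it gave 6, with a median of -0.37, and for the 4 groups 13. The share of all genes is not given here for the other counts of this fit, so they have no background beside them. Each group then had 2 libraries, apart from stress.

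With 1 library left out, the counts ranged from 0 to 3 for stress against control, 0 to 11 for the low dose and 0 to 1 for the high dose against stress, 0 to 7 for the high against the low dose, 1 to 14 for the low dose against control, and 0 to 4 for the 4 groups. The share of all genes at that threshold ranged in the same fits from 1.67% to 5.39%, 8.13% to 28.4%, 0.743% to 3.09%, 3.4% to 22.2%, 6.6% to 25.9% and 3.72% to 18.7%, with the highest share without low-dose library 1 in each comparison with the low dose and in the test of 4 groups. The median of the members stayed negative for the low dose against stress (-0.48 to -0.06) and against control (-0.57 to -0.27) and positive for the high against the low dose (0.15 to 0.47). It changed sign for stress against control, and for the high dose against stress and control. With 3 libraries a group and a median SE of 0.25, differences below about 2 SE could not be resolved.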

Other observations

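Branches of the mevalonate route lead to protein prenylation, dolichol and ubiquinone. Of 11 such genes, 0 had stress library 3, high-dose library 2 and control library 2 as the 3 highest. Only 0.691% of all genes had that order, so a count of 0 among 11 does not set these branches apart. At the low dose 9 of these 11 were higher than in controls, with a median log2 fold change of 0.13, and 9 of 11 were higher than under stress, with a median of 0.12, against 50.5% and 49.9% of all genes. Fnta, the subunit that farnesyl and geranylgeranyl transferases have in common, differed by 0.37 (SE 0.15) between the low dose and control, and Pggt1b, a subunit of the geranylgeranyl transferase, by -0.36 (SE 0.16) between the low dose and stress. Neither passed after adjustment (adjusted p = 0.334 and 0.367 by edgeR). Each was the 1 of 11 genes in its direction at an unadjusted p under 0.05, against 6.45% and 6.55% of all genes. At the low dose Fnta had 77.8, 100 and 64.2 CPM and Pggt1b 48.0, 27.7 and 39.9 CPM. Low-dose library 2, with the strongest trend along gene length, thus held the highest Fnta and the lowest Pggt1b value. Fits without that trend are not given for these 2 genes. The 2 comparisons share the low-dose libraries.

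The 15 tested genes of fatty acid oxidation had medians between -0.03 and 0.07 in the 6 comparisons. All 17 genes of the list, tested or not, summed to 998 to 1030 TPM under stress and 785 to 1080 TPM at the low dose. They summed to 914 to 1060 TPM at the high dose and 955 to 1010 TPM in controls. Etfb, an electron carrier of this route, was 0.33 (SE 0.14) higher at the low dose than in controls (adjusted p = 0.359 by edgeR). It was the 1 of 15 genes higher there at an unadjusted p under 0.05, against 6.45% of all genes. Its values were 58.5, 71.2 and 46.8 CPM at the low dose and 49.1, 43.5 and 48.3 CPM in controls, with overlap. The highest was in low-dose library 2, which had the strongest trend with gene length. The fit without that trend is not given for this gene.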
